A study of Mus musculus with 6 samples.

Results

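The transcripts of 10 receptor tyrosine kinases, Kit, Met, Erbb3, Fgfr1, Igf1r, Insr, Pdgfra, Epha2, Ddr1 and Tyro3, were examined in B16F10 cells, an established line of mouse melanoma cells. The receptors were taken from the gene table by their symbols, and all 10 were found among its 27179 genes. RNA had been sequenced from 3 wild-type B16F10 cultures treated with 0.01% olive oil (OLO) and 3 treated with 0.01% ozonated olive oil (OZO), each for 6 h. The value analysed for each gene is the authors' mean over the libraries of both treatments, so the levels below describe OLO-treated and OZO-treated cells as 1 pool. The libraries were not analysed singly, and the authors' own comparison of OZO with OLO was not used, so no difference between the treatments is given. Each level is 1 mean without an error, and no test was made.

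Receptor tyrosine kinases are membrane proteins that bind a growth factor or another ligand outside the cell and phosphorylate tyrosines inside it, to which adaptor proteins and the RAS to ERK and PI3K pathways then attach. In the pigment lineage, KIT and its ligand are needed for the migration and survival of melanocyte precursors, and MET, ERBB3 and the insulin-like growth factor receptor are known for roles in the growth and spread of melanoma. The 10 genes belong to 8 receptor families, and some of the proteins act in pairs with other members of their family.

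All members share the catalytic loop of the kinase domain. The 24 bases that code for it are shown to place the receptors side by side, with the codon of the catalytic aspartate in capitals. They were read from the transcript with the longest coding sequence of each gene in GENCODE release M21.

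Kit: cacagaGATttggcagccaggaat

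Pdgfra: caccggGACctggctgcccgcaac

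Met: cacagaGACttagctgcaagaaac

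Erbb3: cataggGACcttgcgctccggaat

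Fgfr1: caccgaGACctggctgctaggaac

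Igf1r: cacagaGACcttgctgctaggaac

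Insr: caccggGACctggcagctcgaaac

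Epha2: caccggGACctggccgcccgcaac

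Ddr1: catcggGACctggccacccggaac

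Tyro3: caccgaGACctagcagctcggaat

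The capital codon is GAC in 9 genes and GAT in Kit. The 10 stretches are all different, and over the 45 pairs they differ at between 1 and 11 of the 24 bases. The closest pair was Pdgfra and Epha2, with 1 differing base, and the most distant was Met and Erbb3, with 11. Insr and Igf1r, which belong to 1 family, differ at 6 bases, as many as Kit and Met do.

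Of the 10 receptors, 9 had a mean level of at least 1 CPM (a read count scaled to a common library size), which stood for 19.6 reads in a library of average size. Over all 27179 genes of the table, 43.7% reached 1 CPM. Of the 48 other receptor tyrosine kinases, 16 did so, and 1 had no reads in any library. The receptor under 1 CPM was Epha2. Because a long transcript collects more reads, levels of different genes are compared below as CPM per kilobase, with the length of all annotated exons of the gene joined. On that scale the median was 2.32 over the 10 receptors and 0.0395 over the 48 other receptor tyrosine kinases. It was 1.47 over the 19227 genes with a length and reads, and 0.323 over all 23882 genes with a length, those without reads included. The 10 receptors were chosen with earlier results of these data known. Their contrast with the 48 others is therefore a description of the chosen genes and not a test. In RNA of whole cultures, a transcript present in few cells cannot be told apart from a weaker transcript present in every cell.

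The levels per kilobase ran from 25.1 for Met to 0.0984 for Epha2, a 255-fold range. Met alone made up 51.6% of the summed level of the 10 receptors. Below it stood Ddr1 with 6.03, Insr with 5.97, Erbb3 with 4.71 and Kit with 3.18 CPM per kilobase. Tyro3, with 1.47, and Igf1r, with 1.42, formed the next step, and Fgfr1, with 0.430, and Pdgfra, with 0.327, were lower again. Neighbours in this order were close in places. Ddr1 and Insr differed 1.01-fold, and Tyro3 and Igf1r 1.03-fold. Both pairs changed places when the length of the longest transcript was used, as did Erbb3 and Kit, which differed 1.48-fold. The other 42 of the 45 pairs kept their order with that length and with the coding length. Whether neighbours differ by more than the spread between cultures cannot be read from a mean.

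**Figure D1:**
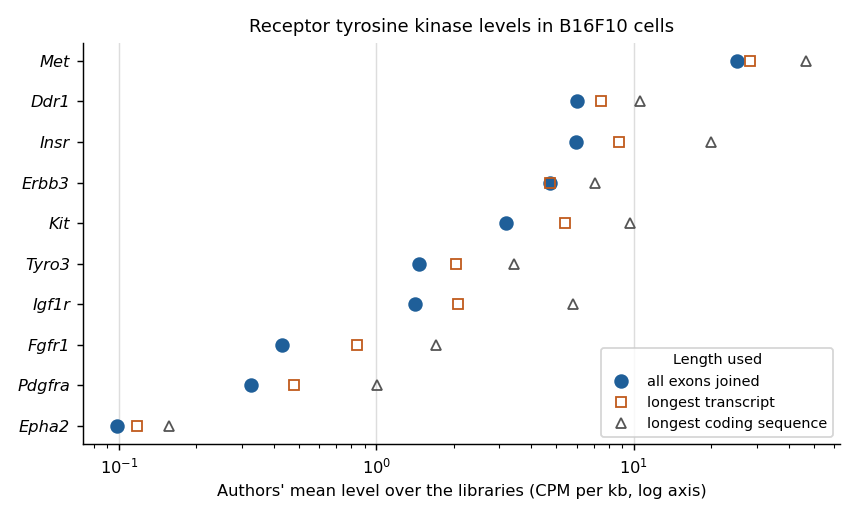
Mean level of each receptor over the libraries, in CPM per kilobase on a log axis, with the gene's joined exons (filled circles), its longest transcript (open squares) or its longest coding sequence (open triangles) as the length. Met is highest and Epha2 lowest with all 3 lengths, from 25.1 to 0.0984 with joined exons.

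Among all genes with a length, those without reads included, 91.8% lay below Met on the scale per kilobase. The share below was 73.4% for Ddr1, 73.3% for Insr, 70.4% for Erbb3 and 66.1% for Kit. It was 59.7% for Tyro3, 59.5% for Igf1r, 52.6% for Fgfr1, 50.1% for Pdgfra and 41.2% for Epha2. Epha2 was thus below the median of all these genes. Among genes with reads only, the median was the level of Tyro3, and Igf1r, Fgfr1, Pdgfra and Epha2 lay below it.

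**Figure D2:**
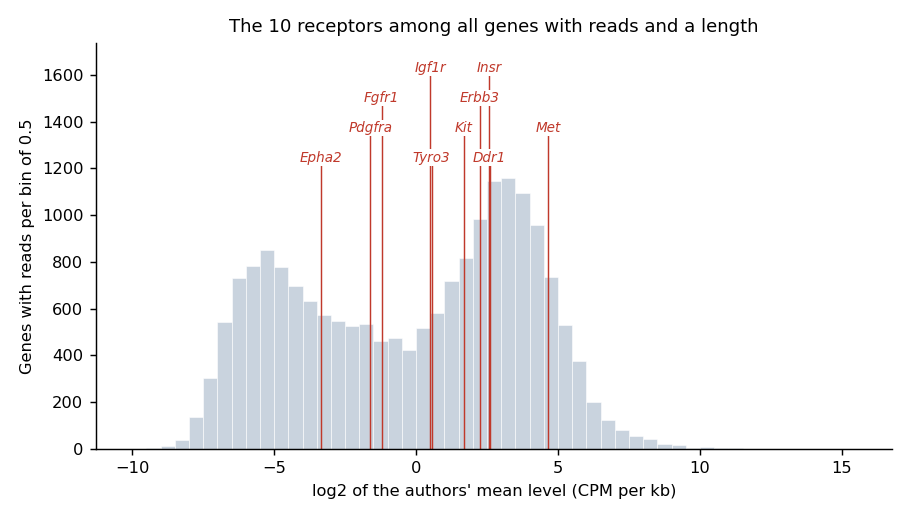
Number of genes with reads and a known length in bins of 0.5 of the log2 level in CPM per kilobase (bars), with the 10 receptors as vertical lines whose heights only separate the names. Met stands on the right flank of the upper peak, Ddr1, Insr, Erbb3 and Kit on its left flank, and Fgfr1 and Pdgfra between the peaks.

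Met, the receptor of hepatocyte growth factor, is encoded on the plus strand of chromosome 6 between 17463800 and 17573980 (GRCm38, also called mm10, as are all positions given). Its mean level was 193 CPM, with a geometric mean of 3792 reads per library (0.5 reads added to each count, as for all read numbers below). The catalytic loop shown above lies in exon 19 of 22 at chr6:17562239-17562262. Mst1r, the other receptor of its family, averaged 0.866 reads, where a gene without any read has 0.5. The ligand gene Hgf was also scarce, with 0.721 reads.

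The 300 bases around a start site of Met are shown because Met is the highest of the 10 receptors, with each CG in capitals (RefSeq, GRCm38.p6, chr6:17463707-17464006, plus strand).

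Met: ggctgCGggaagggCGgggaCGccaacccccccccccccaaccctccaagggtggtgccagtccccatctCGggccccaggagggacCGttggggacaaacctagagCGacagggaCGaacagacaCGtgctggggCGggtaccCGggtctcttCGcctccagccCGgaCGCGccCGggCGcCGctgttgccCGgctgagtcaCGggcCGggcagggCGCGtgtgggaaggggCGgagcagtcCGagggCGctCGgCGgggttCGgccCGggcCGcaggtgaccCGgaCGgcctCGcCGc

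The stretch holds 34 CG pairs and 75.7% G and C, and 92.3% of the 32851 RefSeq promoters of the same length hold fewer CG pairs. Epha2, the lowest of the 10 receptors, is shown for comparison (RefSeq, GRCm38.p6, chr4:141300971-141301270, plus strand).

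Epha2: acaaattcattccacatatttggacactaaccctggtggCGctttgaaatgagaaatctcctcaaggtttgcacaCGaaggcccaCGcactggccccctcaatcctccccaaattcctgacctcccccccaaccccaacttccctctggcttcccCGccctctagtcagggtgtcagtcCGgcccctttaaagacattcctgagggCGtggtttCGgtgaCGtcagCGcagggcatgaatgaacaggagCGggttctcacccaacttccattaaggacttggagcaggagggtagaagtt

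Here 10 CG pairs and 54.7% G and C were counted, and 56.5% of promoters hold fewer CG pairs. Level and CG number did not run in 1 order over the members. The promoter of Igf1r, a receptor of middle level, held the most CG pairs, 48, and that of Pdgfra the fewest, 5. Promoters were found for 7 of the 10 receptors, 11 stretches in all, with 31 CG pairs for Tyro3, 20 and 21 for the overlapping pair of Kit, and between 7 and 39 for the 4 of Ddr1. Erbb3, Fgfr1 and Insr had no entry. The 6-letter motif CACGTG, which reads the same on both strands and is a core site of the melanocyte factor MITF, was found in 1 of the 11 stretches, that of Met, and is held by 7.15% of all promoters. CATGTG, searched on both strands, was in 0 of the 11 and in 14.2% of all promoters, and TATAAA in 0 and in 13.6%. No motif contains another, and a match or its absence describes the letters alone.

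Kit, the receptor of stem cell factor, averaged 28.4 CPM, or 557 reads. Pdgfra, the receptor of platelet-derived growth factors that is common in fibroblasts and glial precursors, averaged 3.28 CPM, or 64.4 reads, and per kilobase it was 9.73-fold below Kit. Both genes lie on the plus strand of chromosome 5 and are close neighbours. Pdgfra runs from 75152292 to 75198215 and Kit from 75574916 to 75656722, with 376700 bases between them. Kdr, the receptor of vascular endothelial growth factor, lies on the minus strand, with 276104 bases between the spans of Kit and Kdr, and averaged 0.855 reads, so that the 3 adjacent receptor genes spanned the range from a middle level to the edge of detection. The catalytic loop is in exon 17 of 21 of Kit at chr5:75649553-75649576 and in exon 18 of 23 of Pdgfra at chr5:75185957-75185980. In the same family, Pdgfrb reached 0.624 CPM per kilobase, Csf1r 0.0623 and Flt3 0.0133. Pdgfrb was 1.91-fold above Pdgfra with joined exons and 1.03-fold with the coding length.

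Erbb3, the receptor of neuregulins, has weak kinase activity of its own and signals mainly through a partner, most often ERBB2. It lies on the minus strand of chromosome 10 from 128567523 to 128589652, and its catalytic loop is in exon 21 of 28 at chr10:128572533-128572556. It averaged 28.3 CPM, or 556 reads. Erbb2 was present at 2.01 CPM per kilobase, 2.34-fold below Erbb3. Egfr, with 2.03 reads, and Erbb4, with 1.96 reads, were close to the limit of detection, so Erbb2 and Erbb3 were the only receptors of this family at or above 1 CPM.

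Insr and Igf1r are the receptors of insulin and of insulin-like growth factors and can form hybrids with each other. Insr lies on the minus strand of chromosome 8 from 3122061 to 3279617 and averaged 82.0 CPM, or 1612 reads. Igf1r lies on the plus strand of chromosome 7 from 67952827 to 68233668 and averaged 23.8 CPM, or 467 reads. Per kilobase Insr was 4.22-fold above Igf1r with joined exons and 3.44-fold with the coding length. Insrr, the orphan receptor of the family, had no reads in any library. The catalytic loops are in exon 18 of 21 of Insr at chr8:3161376-3161399 and in exon 18 of 21 of Igf1r at chr7:68212096-68212119.

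Fgfr1, a receptor of fibroblast growth factors, lies on the plus strand of chromosome 8 from 25513654 to 25575718, with its catalytic loop in exon 14 of 18 at chr8:25572344-25572367. It averaged 4.25 CPM, or 83.4 reads, and Fgfr3 was 1.88-fold above it per kilobase. Fgfr2, with 0.0296, and Fgfr4, with 0.0494 CPM per kilobase, were the lowest of the 4 FGF receptors. Epha2, a receptor of ephrins that is common in epithelial cells, lies on the plus strand of chromosome 4 from 141301240 to 141329384, with its catalytic loop in exon 13 of 17 at chr4:141322296-141322319. It averaged 0.460 CPM, or 9.04 reads, and so its level rested on few reads. Of the 14 Eph receptors, 6 were at or above 1 CPM, beside 43.7% of all genes. The highest were Epha3 with 4.58 and Ephb4 with 3.59 CPM per kilobase, followed by Epha4 (1.38), Epha7 (1.13), Epha1 (0.541) and Ephb2 (0.399). Epha3 was 46.6-fold above Epha2 with joined exons and 86.0-fold with the coding length.

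Ddr1, a receptor of collagen, lies on the minus strand of chromosome 17 from 35681567 to 35704621, with its catalytic loop in exon 16 of 18 at chr17:35683575-35683598. It averaged 28.8 CPM, or 565 reads. Its relative Ddr2, also a collagen receptor, was 7.90-fold higher with joined exons and 16.4-fold with the coding length. At 47.6 CPM per kilobase it was the highest of all 58 receptor tyrosine kinases. Tyro3 belongs with Axl and Mertk to the TAM receptors, which bind GAS6 and protein S. It lies on the plus strand of chromosome 2 from 119797733 to 119818104, with its catalytic loop in exon 16 of 19 at chr2:119812626-119812649, and averaged 9.08 CPM, or 178 reads. All 3 TAM receptors were above 1 CPM, with 1.67 CPM per kilobase for Axl, 1.47 for Tyro3 and 0.610 for Mertk. Tyro3 was above Axl in place of below it with the longest transcript or the coding length.

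Placed among all 58 receptor tyrosine kinases, the 10 receptors held 30.2% of the summed level per kilobase and Ddr2 alone held 29.5%. With the coding length these shares were 25.0% and 40.6%. Between Ddr2 and Ddr1 stood Met and Ryk, each with 25.1 CPM per kilobase, and Lmtk2 with 21.5. With the longest transcript and with the coding length, Ryk was above Met. Ryk is a WNT receptor whose kinase domain is inactive, and Lmtk2 is a membrane kinase of the lemur family. Of the 10 highest genes 5 were among the 10 receptors described, and of the 20 highest 7. Altogether 14 other receptors lay at or above Pdgfra, of which Erbb2, Axl, Fgfr3, Pdgfrb and Mertk belong to families named above, as do Ddr2 and the 6 Eph receptors. Of the 58 genes, 25 were at or above 1 CPM, 32 were under it with reads, and 1 had no reads. The 25 genes are 43.1% of the 58, near the 43.7% over all genes. A library of average size would show a gene at 0.153 CPM as 3 reads.

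**Figure D3:**
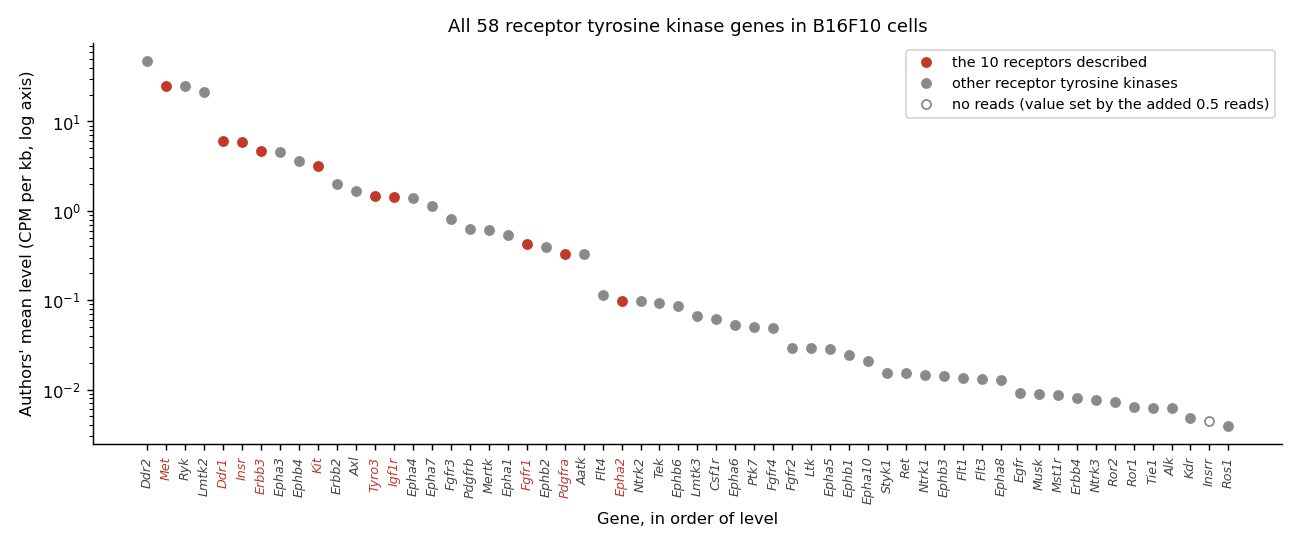
Mean level of all 58 receptor tyrosine kinase genes in CPM per kilobase on a log axis, in order of level, with the 10 receptors described in red and a gene without reads as an open circle. Ddr2, Met, Ryk and Lmtk2 stand above the rest, at 21.5 or more, and Epha2 is the lowest of the red points.

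Ligand genes of the 10 receptors were well detected for some and scarce at this depth for others. Of 24 such genes, 12 were at or above 1 CPM and 3, Nrg1, Ins1 and Ins2, had no reads. The share at or above 1 CPM, 50%, was near the 43.7% over all genes. Kitl, the ligand of Kit, reached 10.8 CPM, or 213 reads. Pros1, which encodes protein S and serves Tyro3, reached 9.90 CPM per kilobase, and Gas6, with 3.16 reads, was scarce. For Epha2, the ephrin gene Efna5 reached 9.80 CPM per kilobase, whereas Efna4 (0.877), Efna1 (0.644), Efna3 (0.261) and Efna2 (0.251) were lower. Among the collagen genes that serve Ddr1, Col4a1 reached 3.68 and Col4a2 2.97 CPM per kilobase, and Col1a1 and Col1a2, which are typical of fibroblasts, 0.259 and 0.0928. Pdgfa, with 1.31 CPM per kilobase, was 3.99-fold above its receptor Pdgfra, or 6.41-fold with the coding length, while Pdgfb had 4.02 and Pdgfc 1.09 reads. Fgf1 reached 1.01 CPM per kilobase and Fgf2 0.721 reads. Nrg2 averaged 22.0 reads, the only neuregulin gene of the list with reads. Igf1, with 2.87, and Igf2, with 3.70 reads, were few, so that the genes for ligands of Insr and Igf1r were all under 1 CPM. The medium held serum, a source of growth factors whose amounts the RNA does not show.

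**Figure D4:**
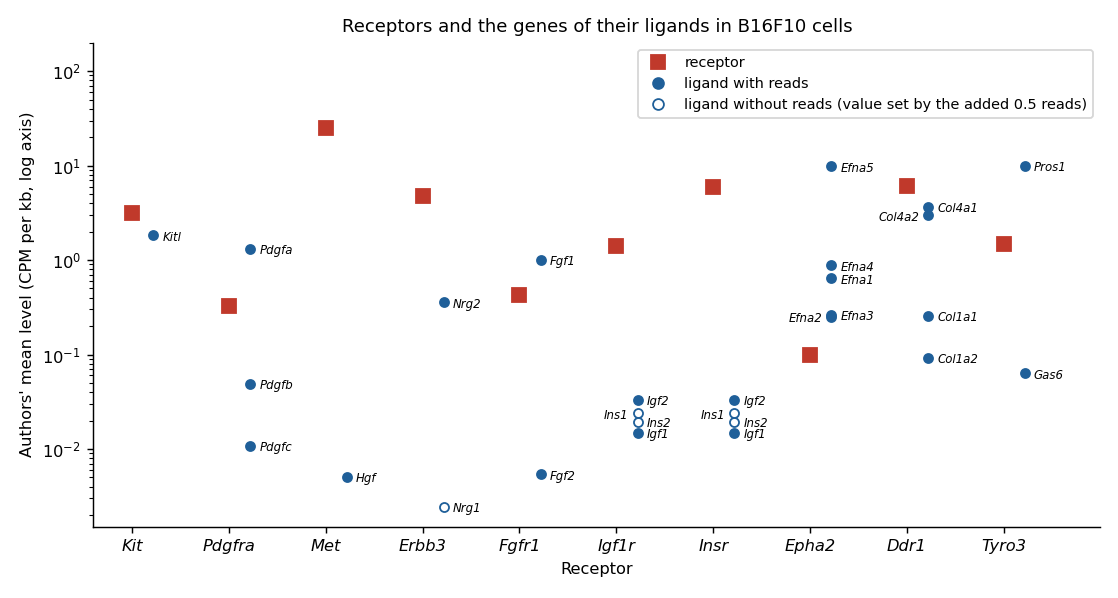
Mean level in CPM per kilobase on a log axis of each receptor (red squares) and, to its right, of the genes of its ligands (blue circles, open where no read was counted). Igf1r and Insr share their ligand genes, which lie below 0.04, and Hgf lies under 0.01, while Efna5 and Pros1 lie near 10.

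Of the listed genes that carry the signal of these receptors onward or restrain it, 31 of 34 were at or above 1 CPM, with a median of 10.7 CPM per kilobase. Among the highest were the adaptor Crk with 51.5 CPM per kilobase and Ptpn11, the phosphatase SHP2, with 47.4. The 3 lowest were Lrig1 (0.0750), Grb14 (0.0460) and Grb10 (0.0283), each under 1 CPM. They are among 8 listed genes that restrain receptor signalling, and the other 5 each reached 1 CPM, from Cblb with 1.63 to Errfi1 with 11.9 CPM per kilobase. The substrates of the insulin and IGF1 receptors, Irs1 with 1.27 and Irs2 with 1.70 CPM per kilobase, were also among the lower genes of the list.

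The label of melanoma cells was checked against marker genes. All 9 melanocyte genes were at or above 1 CPM, from 16.8 CPM per kilobase for Mc1r to 2062 for Tyrp1. Of 4 keratinocyte markers 0 reached 1 CPM, and Krt5 had no reads. Among the other markers, 2 of 4 fibroblast genes, 2 of 3 endothelial genes and 1 of 4 blood and macrophage genes reached 1 CPM, the highest being Col1a1 (0.259), Pecam1 (0.195) and Cd68 (4.35 CPM per kilobase), and the lowest Lum (0.0236), Cdh5 (0.0240) and Ptprc (0.00384). Exons of antisense genes overlap 456 bases of Pdgfra, 216 of Ddr1 and 164 of Fgfr1. Pdgfra also shares 166 exon bases with Gm42803 on the opposite strand and 30 with the microRNA gene Mir7025 on its own strand. Whether reads were counted by strand is not given in the sources used here, and counting by strand would not separate the overlap on the same strand.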

How the data were processed

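Total RNA of 6 B16F10 cultures, 3 per treatment, was made into directional libraries and sequenced. The authors aligned reads to mm10 with HISAT2 (2.1.0), counted them with featureCounts (2.1.1) and ran limma-voom (limma 3.58.1), per the methods and the submitters' processing notes. The values used are the deposited log2 means, per gene, of CPM (counts scaled to library size) over the libraries, with 0.5 reads added to each count. The table's other columns hold the authors' comparison of OZO with OLO (fold changes, statistics, p-values) and were not used. No model was fitted. The mean shared by the 6025 genes without reads gave a geometric mean library size of 19641946 reads, and the depth of each library is unknown. Lengths came from GENCODE M21 on GRCm38, matched by Ensembl identifier for 23882 genes. Members and gene lists were chosen with earlier results of these data known. The text names all 10 members, up to 15 other receptors at or above the lowest member with 1 CPM, each member's ligand genes, the 3 highest and 3 lowest signalling genes (1 of them is not reported here), and the ends of each marker list. Other genes, relatives of the members, Irs1, Irs2, Cblb and Errfi1, were chosen after their values were seen. Level and library size calculations were run on counts simulated with the same 0.5 added reads, which checks the arithmetic and not the deposited means. Python 3.11.15, numpy 2.4.6, pandas 2.3.3 and matplotlib 3.10.9 were used.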

Additional observations from a re-analysis of the deposited data

How the results depend on the processing

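With thresholds of 0.5 and 2 CPM, 9 of the 10 receptors were reached as with 1 CPM, and 6 with 10 CPM. Over all genes the shares were 47.8% at 0.5, 40.2% at 2 and 32.3% at 10 CPM. Of all 58 receptor tyrosine kinases, 14 reached 10 CPM in place of 25 at 1 CPM. The share of genes at or above 1 CPM was 56.2% among genes with reads only, in place of 43.7%. The share of the summed level held by the 10 receptors was 31.1% with the longest transcript and 25.0% with the coding length, in place of 30.2%. Levels per kilobase moved by over 1.5 times for 2 receptors with the longest transcript and for 9 with the coding length, since a shorter length raises the value, and for 0 with the added 0.5 reads subtracted. No paired analysis was possible because each gene has 1 mean over all libraries. The comparison of OZO with OLO was not run, because a mean over both groups cannot be split and the columns of the authors' own comparison were not used. Its alternatives (another normalization, no filter, another pseudocount, leaving out each replicate) were not run either.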
